A study of Mus musculus with 4 samples.

Results

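The cytochrome P450 genes of families 1 to 4 were examined in liver RNA of small and of normal mice. A gene was a member when its name in the annotation of the array began with Cyp, a family number of 1 to 4 and the letter of a subfamily, and 77 of 36161 gene names met this rule. RNA came from 4 groups, with 1 array each: control females (CF), microsomic females (MF), control males (CM) and microsomic males (MM). Microsomic (M) mice were those whose weight at birth lay under the tenth percentile of the colony for their gender, and control (C) mice were littermates of normal weight. The labels of all 4 samples give whole liver of strain C57BL/6J at embryonic day 20, with no treatment and no altered allele, whereas the methods speak of newborn mice and of C57BL/6 N. The methods also speak of replicate experiments in every group, whereas 1 array per group was analysed here, and whether an array holds the RNA of 1 animal or of several is not given in the sources used here. The study asked how the liver of M animals differs from that of C animals in each gender.

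Cytochrome P450 enzymes of these families are haem proteins of the endoplasmic reticulum that insert oxygen into small lipophilic molecules, with electrons supplied by P450 reductase. In the liver, families 1 to 3 oxidise drugs, pollutants and steroids, and family 4 hydroxylates fatty acids at the far end of the chain. Most members lie in tandem clusters of close copies. Their transcription is controlled by ligand-activated receptors: the aryl hydrocarbon receptor (Ahr) for Cyp1, Nr1i3 and Nr1i2 for Cyp2b, Cyp2c and Cyp3a, and Ppara for Cyp4a. Many are low in fetal liver and increase around birth, and in adult mice several differ between the sexes.

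With 1 array per group analysed here there was no replicate, so a pair of arrays has no p-value. Each value is a scaled log2 signal: the log2 of the processed spot intensity minus the log2 of the 75th percentile of the array, so that 0 marks a spot brighter than most. A gene is given by its brightest unflagged probe, so signals of different genes were not ranked against each other. Differences between arrays are log2 differences of this signal, and a difference was counted when it was over 1.5-fold. Where 1 array of a pair was not well above background, the fold is a lower bound against the limit of that array, which lay between -6.03 (MF) and -4.69 (CM), or against the gene's own signal there where that was higher. These bounds hold for the deposited background subtraction; correction by normexp, which lifts dim spots, made several of them smaller. The probe of Cyp2c29 was printed on 8 unflagged spots, whose SD on the 4 arrays lay between 0.13 (MM) and 0.21 (CM). The median SD over all probes printed at 10 spots was larger on each array, between 0.18 (MM) and 0.27 (CM). Both are the spread of spots on 1 array and hold none of the spread between animals. All 4 arrays lay on 1 slide, both M arrays in one column and both C arrays in another, so position on the slide and group cannot be told apart.

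The labelled tissue was checked against its markers. All 12 hepatocyte markers were well above background on the 4 arrays, with a median difference of 0.18 in MF vs CF and -0.47 in MM vs CM. By over 1.5-fold, 2 were higher and 2 lower in MF than in CF, and 1 was higher and 6 lower in MM than in CM. Their summed linear scaled signal was 5613 on MM against 8058 to 8449 on the other arrays. The lower values on MM depend on the scaling, as the 75th percentile was 925 on MM and 628 on CM. Leaving out the scaling moves differences in MM vs CM up by 0.56, which is more than the size of that median, and those in MF vs CF by 0.40. Among the intestinal markers, 9 of the 11 that could be compared were higher by over 1.5-fold in MF than in CF, and the intestinal transcription factor Cdx2, at -0.20 on MF, was not well above background on the other 3 arrays. Among the 6 heart markers, 5 were lower in MF than in CF, with Myh6 at 4.76 on CF and -0.89 on CM and not well above background on MF or MM. Of 7 exocrine pancreas markers compared, 6 were lower in MM than in CM, and 4 were higher and 1 lower in MF than in CF. Sums of linear scaled signals were 108.2 on MF and 106.9 on MM, against 18.27 on CF and 17.17 on CM, for the intestinal markers, of which 11 (MF), 7 (MM), 6 (CF) and 7 (CM) were well above background. Fabp2, at 5.95 on MF and 4.98 on MM, and Apoa4, at 4.81 and 6.10, stood above both C arrays in either gender. These genes carry most of the intestinal sum on each array. Alpi, Lct, Cdx2 and Cdh17 were well above background on MF and not on MM. Vil1 was at 0.76 on MF, and at -3.77 on MM against -2.52 on CM. The sums were 0.7935, 0.7748, 111.3 and 2.055 in the same order for the heart markers, of which 5, 5, 6 and 6 were well above background. The part of these other organs in the results below was not tested, and in whole liver RNA fewer hepatocytes and less RNA per hepatocyte cannot be told apart.

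**Figure D1:**
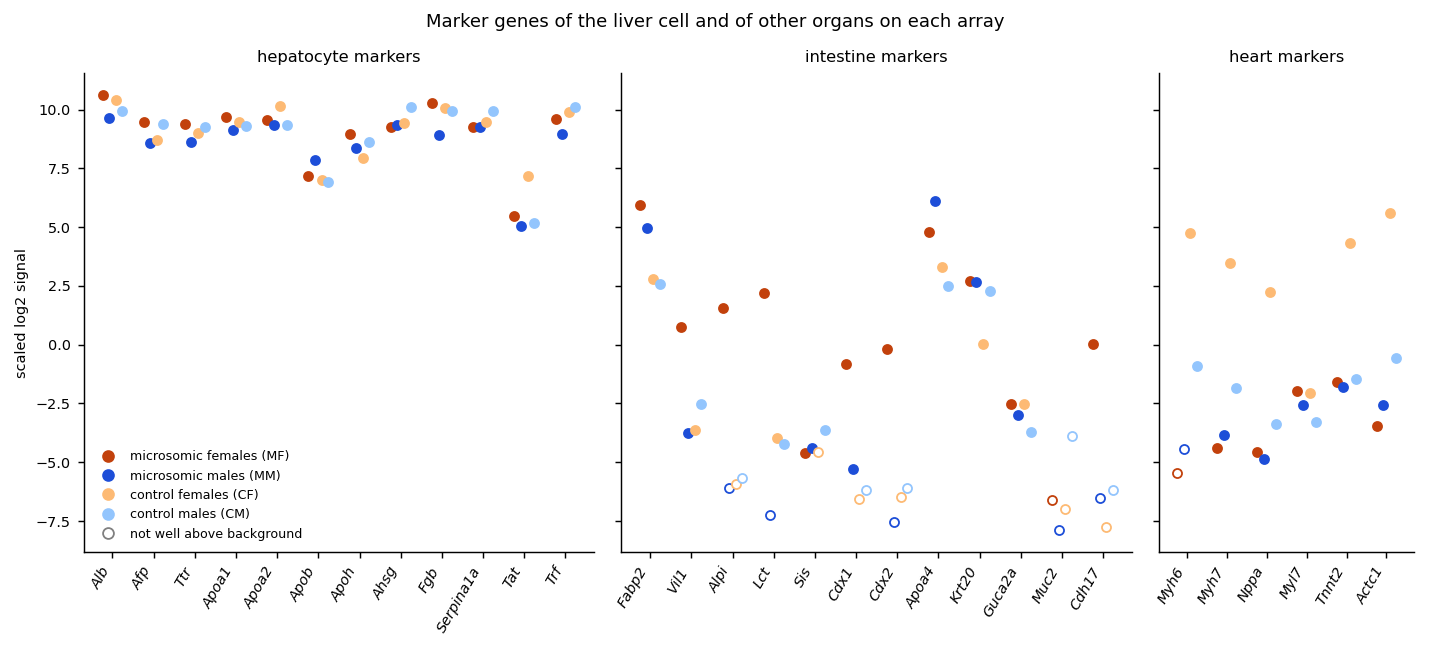
Scaled log2 signal (vertical axis) of 12 hepatocyte, 12 intestinal and 6 heart marker genes on each of the 4 arrays, 1 point per array, open where the gene was not well above background. Hepatocyte markers are well above background on all arrays, with Tat between 5.05 and 7.17, Cdx2 is well above background on the MF array (-0.20) and on none of the other 3, and Myh6 is at 4.76 on the CF array.

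Close copies bear on what a probe can tell apart, so the probes that carry the main differences are shown. Among the 2926 pairs of probes representing different members, 3 pairs matched at 80% or more over at least 40 overlapping bases without gaps, and each pair lay within a subfamily. Probes were compared with each other and not with transcripts, so probes on different stretches of close copies could not match. Sequences are those of the array design, 5′ to 3′, with mm9 positions of the whole 60-base probe as the annotation gives them; no mm9 gene models were used here, so exon or UTR was not assigned. The first set gives 30 bases of each overlap, with the bases that differ within a pair in capitals. Cyp2c37 (chr19:40086467-40086526, plus strand) and Cyp2c50 (chr19:40188154-40188213, plus strand) matched at 35 of 40 bases. Cyp3a44 (chr5:146585717-146585776, minus strand) and Cyp3a41b (chr5:146319794-146319853, minus strand) matched at 46 of 53. Cyp4a10 (chr4:115206200-115206259, plus strand) and Cyp4a31 (chr4:115251553-115251612, plus strand) matched at 44 of 47. A dimmer probe of Cyp2c67 (chr19:39683429-39683488, minus strand) and the probe of Cyp2c68 (chr19:39763420-39763479, minus strand) matched at 55 of 59.
Cyp2c37: aCactgACttttatccaGttcttttgcctC
Cyp2c50: aTactgCTttttatccaTttcttttgcctG
Cyp3a44: cagtgtctgtGcaAgttaAcatAtaatACG
Cyp3a41b: cagtgtctgtAcaGgttaTcatCtaatTAA
Cyp4a10: atcttccctcctttctgcaataaagTtccC
Cyp4a31: atcttccctcctttctgcaataaagGtccA
Cyp2c67: acAcagtcccagAaattccatctatattcc
Cyp2c68: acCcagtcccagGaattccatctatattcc

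The second set gives whole probes of members that stood apart from the rest: Cyp2c39, higher on both M arrays; Cyp2b9 and Cyp3a57, lower in MF and higher in MM than in their controls; Cyp4x1, well above background on the MM array alone; and a pair of Cyp2c54 probes that gave different values. None of the first 4 reached 80% with another representing probe, but whether they bind transcripts of other members was not tested. They lie at chr19:39642568-39642627 (Cyp2c39, plus strand), chr7:26983484-26983543 (Cyp2b9, plus strand), chr5:146151322-146151381 (Cyp3a57, plus strand) and chr4:114794372-114794508 (Cyp4x1, minus strand, an interval longer than the probe). The Cyp2c54 probes, annotated to chr19:40122119-40144700 (first) and chr19:40144659-40144718 (second) on the minus strand, share 42 bases, given in capitals.
Cyp2c39: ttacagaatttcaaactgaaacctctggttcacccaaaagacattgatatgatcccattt
Cyp2b9: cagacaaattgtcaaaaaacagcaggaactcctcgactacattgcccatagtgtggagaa
Cyp3a57: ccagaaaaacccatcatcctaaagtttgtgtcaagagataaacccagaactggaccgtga
Cyp4x1: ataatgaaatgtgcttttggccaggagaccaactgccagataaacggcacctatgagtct
Cyp2c54, first: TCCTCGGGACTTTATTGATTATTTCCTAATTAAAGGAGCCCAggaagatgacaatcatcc
Cyp2c54, second: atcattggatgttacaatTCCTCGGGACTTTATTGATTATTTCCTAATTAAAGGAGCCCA

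Of the 77 members, 75 had an unflagged probe and 61 were well above background on all 4 arrays. The probes of Cyp3a25, flagged on CF, and Cyp4a32, flagged on CM, were left out. Cyp2b23 and the pseudogenes Cyp4a29-ps and Cyp4a30b-ps were not well above background on any array, 5 members reached it on 1 array, 2 on 2 arrays and 4 on 3 arrays. Between 65 members (CF) and 68 members (MM) were well above background on an array.

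**Figure D2:**
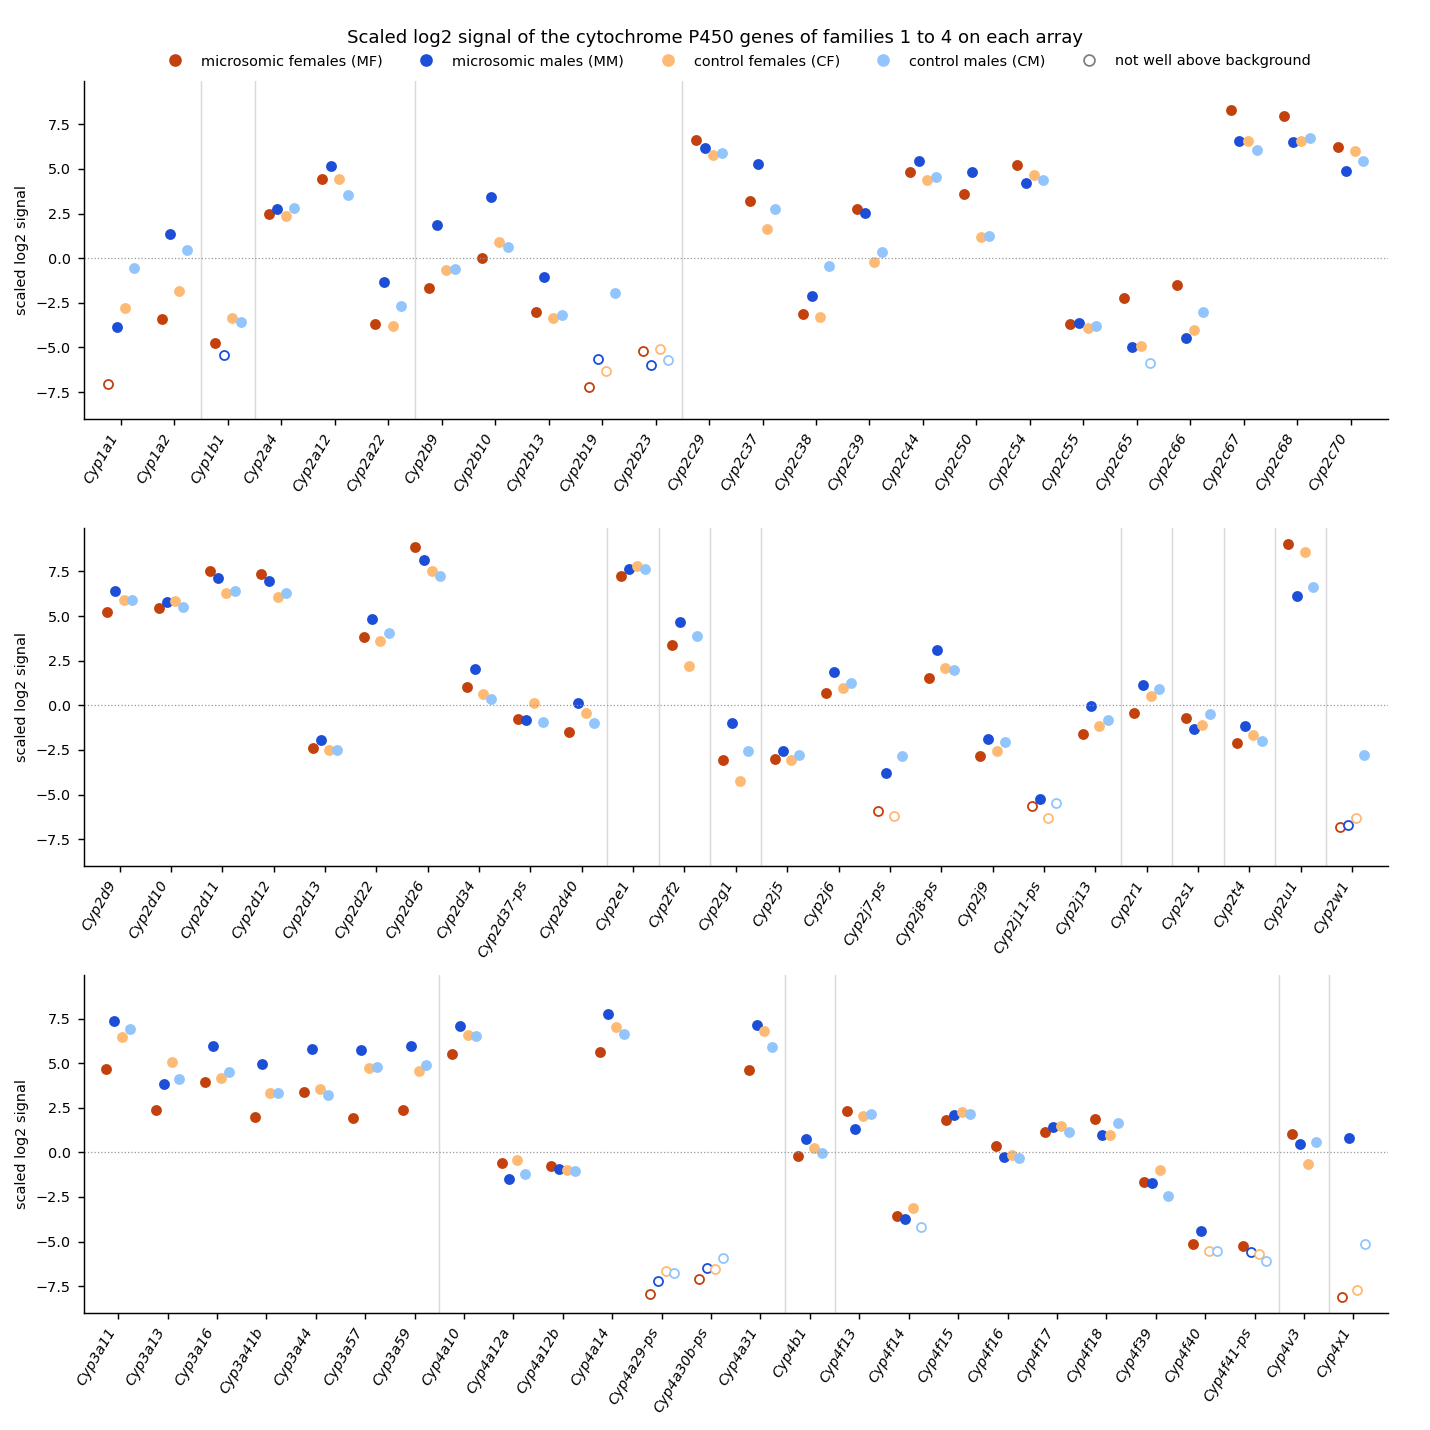
Scaled log2 signal (vertical axis) of the 75 cytochrome P450 genes with an unflagged probe (horizontal axis, ordered by family and subfamily, grey lines between subfamilies), 1 point per array, open where the gene was not well above background. In Cyp3a the MF array has the lowest point in 6 of 7 genes and the MM array the highest in 6 of 7, whereas in Cyp2c37, Cyp2c39 and Cyp2c50 both M arrays lie above both C arrays.

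Differences from control were spread over many members in both genders. In MF vs CF, 15 of the 67 members compared were higher by over 1.5-fold (22.4%) and 18 were lower (26.9%), against 19.9% and 21.1% of all genes compared. In MM vs CM, 32 of 71 were higher (45.1%) and 10 were lower (14.1%), against 17.7% and 23.1% of all genes. The share of members higher in MM was thus above that of all genes, while the shares in MF were near it. For the same pairs, these shares of all genes also stand beside the counts of subfamilies and gene lists. Over the 61 members well above background everywhere, the median difference was 0.07 in MF vs CF and 0.61 in MM vs CM, beside -0.08 and -0.03 over 19303 genes. Scaling moved the MF split: members higher were 45.5% of those counted here, 33.3% after quantile normalization and 69.0% without scaling, and in MM they were 76.2% here and 89.1% without scaling.

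Both pairs could be compared in 66 members. Of these, 8 were higher in both genders (12.1%, against 3.19% of all genes): Cyp2c37, Cyp2c39, Cyp2c50, Cyp2d11, Cyp2d12, Cyp2d26, Cyp2f2 and Cyp2g1. Cyp1a1 and Cyp1b1 were lower in both (3.03%, against 3.8% of all genes). A further 10 were lower in MF and higher in MM (15.2%, against 4.04%), which were Cyp1a2, Cyp2b9, Cyp2b10, Cyp2d40, Cyp3a41b, Cyp3a57, Cyp3a59, Cyp4a14, Cyp4a31 and Cyp4f39. Cyp2c66 and Cyp4f18 were higher in MF and lower in MM (3.03%, against 5.81%).

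**Figure D3:**
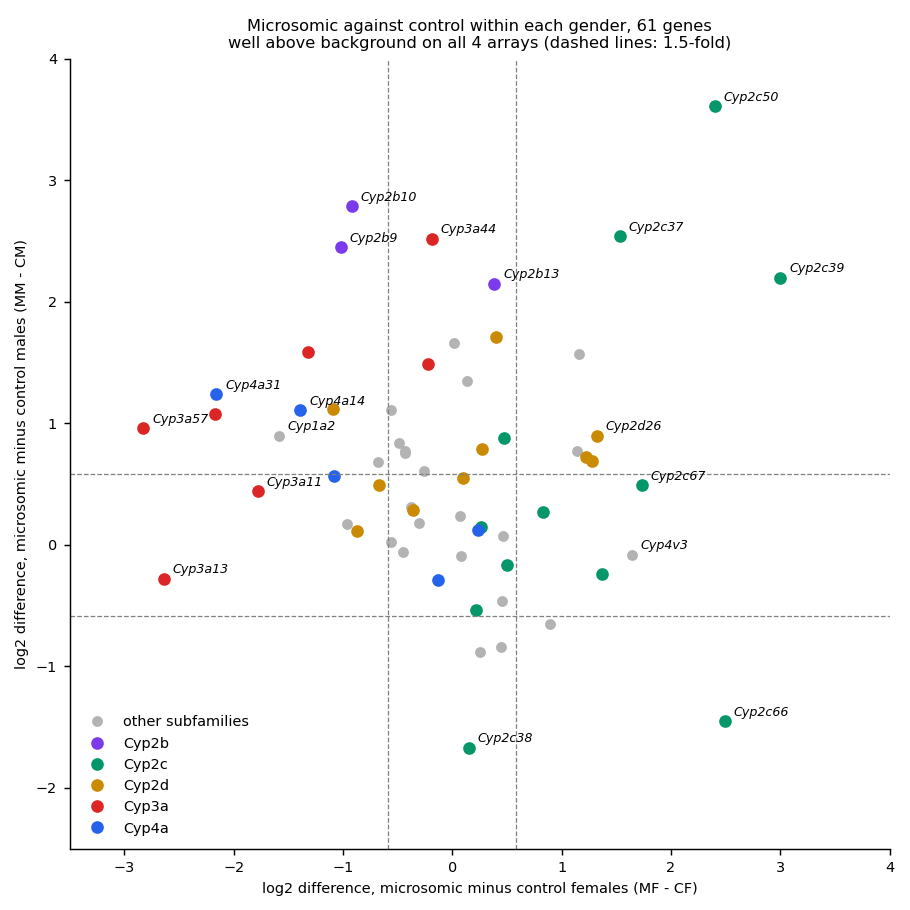
Log2 difference of MF minus CF (horizontal axis) against that of MM minus CM (vertical axis) for the 61 members well above background on all 4 arrays, coloured by subfamily, with dashed lines at 1.5-fold. Cyp2c37, Cyp2c39 and Cyp2c50 lie at the upper right, and the Cyp3a, Cyp4a and Cyp2b genes lie mostly to the left of 0 and above it.

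Of the 8 members higher in both genders, the 3 Cyp2c genes had the largest difference from control in each gender. Cyp2c39, which hydroxylates retinoic acid, had signals of 2.77 on MF and 2.54 on MM, against -0.23 on CF and 0.33 on CM, which is 8.01-fold over CF in MF and 4.60-fold over CM in MM. Cyp2c50, an arachidonic acid monooxygenase, had 3.60, 4.84, 1.20 and 1.23 in the same order, which is 5.28-fold and 12.2-fold over control. Both M arrays lay above both C arrays for these genes, with 1 spot per gene on each array. Cyp2c37, another enzyme of arachidonic acid, had 3.18, 5.28, 1.65 and 2.74, which is 2.89-fold and 5.83-fold over control. Its probe is the one printed above beside that of Cyp2c50, so a part of the signal of one may come from the transcript of the other, which was not tested. A dimmer probe of Cyp2c37 on another stretch of the gene gave differences of 1.25 in MF vs CF and 1.13 in MM vs CM.

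Over the whole subfamily Cyp2c, no gene was lower by over 1.5-fold in MF by its brightest probe. Of the 13 genes, which lie within chr19:39116674-40228028 but for Cyp2c44, 8 were higher in MF than in CF and none lower, with a median difference of 1.10 over the 12 measured on all arrays. In MM vs CM, 4 were higher and 2 lower, with a median of 0.21. Cyp2c67 had signals of 8.28 on MF and 6.57 on MM, against 6.55 on CF and 6.07 on CM, which is 3.32-fold higher in MF and 1.41-fold higher in MM. Its close copy Cyp2c68 had 7.95, 6.50, 6.59 and 6.73, which is 2.58-fold higher in MF and 1.18-fold lower in MM. The MF array thus stood above the other 3 for both. The size in MF depended on the scaling: Cyp2c67 differed by 0.88 after quantile normalization and 0.73 after normexp correction with it, and Cyp2c68 by 0.51 and 0.33, which is under 1.5-fold. Cyp2c29, a main Cyp2c enzyme of mouse liver, was 1.77-fold higher in MF and 1.20-fold higher in MM, a difference in MF of 0.83 that became 0.13 and 0.09 under the same settings. Cyp2c44, an epoxygenase of arachidonic acid, differed by 0.47 and 0.88, and Cyp2c70, which makes muricholic bile acids, by 0.22 and -0.54. The median in MF vs CF was 0.31 under the lowest of the alternative settings and stayed above 0 in all of them.

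Cyp2c65 and Cyp2c66, known from the gut, were highest on the MF array, where most intestinal markers were also highest. Cyp2c65 had signals of -2.23 on MF, -4.99 on MM and -4.91 on CF and was not well above background on CM. The MF array was 6.40-fold over CF, and no fold was given in males because MM lay under the limit of CM. Cyp2c66 had -1.51, -4.46, -4.01 and -3.00, which is 5.63-fold over CF in MF and 2.74-fold under CM in MM. After normexp correction with quantile normalization, Cyp2c65 differed by 1.24 in females and Cyp2c66 by 1.70 in females and -0.53 in males. On the same array the brush border gene Vil1 was at 0.76 and the intestinal cadherin Cdh17 at 0.03, with differences from CF of 4.38 and of at least 5.51. Cyp2c38 had -3.13, -2.11, -3.28 and -0.44, so that the CM array stood alone. Its mean over both probes turned the difference in males from -1.67 to 0.43 and that in females from 0.15 to -0.95. The second probe of Cyp2c38 was well above background on MM alone.

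The 3 probes of Cyp2c54 did not behave as one. The brightest, printed above as the second, differed by 0.50 in MF vs CF and -0.17 in MM vs CM. The first gave 0.97 and 2.27 although it shares 42 bases with it, and the third, at chr19:40112528-40112587, gave 2.56 and 3.25. The values of the third lie near those of Cyp2c50 (2.40 and 3.61). Cyp2c54 is thus open to the choice of probe, and only its brightest probe entered the counts.

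The Cyp3a genes, which hydroxylate steroids and many drugs, were lower in MF and higher in MM. Of the 7 with an unflagged probe, 5 were lower in MF than in CF and none higher, with a median difference of -1.78. In MM vs CM, 5 were higher and none lower, with a median of 1.08. Cyp3a57 had signals of 1.91 on MF and 5.75 on MM, against 4.74 on CF and 4.79 on CM, which is 7.13-fold lower in MF and 1.95-fold higher in MM. Cyp3a59 had 2.39, 5.98, 4.55 and 4.90, which is 4.49-fold lower and 2.12-fold higher, and its dimmer probe gave -3.25 and 2.72. For both genes MF lay far under the C arrays and MM above them. Between the C arrays the 7 genes differed by -0.94 (Cyp3a13, 1.92-fold lower in CM) to 0.47, with a median of 0.04 that became -0.37, with 6 of 7 genes lower in CM, when arrays were centred on the median.

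The Cyp3a forms did not all take part to the same degree. Cyp3a11, the main form of adult liver and a target of Nr1i2, had 4.68 on MF and 7.37 on MM, against 6.46 on CF and 6.93 on CM, which is 3.44-fold lower in MF, while MM was 1.36-fold higher than CM and under the threshold. Cyp3a13, a form of liver and gut, had 2.39, 3.81, 5.04 and 4.09, which is 6.25-fold lower in MF and 1.22-fold lower in MM. It was the single Cyp3a gene with a negative difference in both genders. That in males, -0.28, became 0.34 after normexp correction with quantile normalization. Cyp3a16, known as a form of fetal and young liver, had 3.94, 5.97, 4.15 and 4.48, which is 1.16-fold lower in MF and 2.82-fold higher in MM. Cyp3a44 had 3.36, 5.77, 3.54 and 3.24, which is 1.14-fold lower and 5.75-fold higher, and Cyp3a41b had 1.98, 4.93, 3.30 and 3.34, which is 2.49-fold lower and 3.02-fold higher. The probes of these last 2 genes are a pair printed above. All 7 genes were higher in MM than in MF, by 2.66-fold (Cyp3a13) to 14.4-fold (Cyp3a57). The median of MF vs CF lay between -2.28 and -1.38 and that of MM vs CM between 1.04 and 1.74 over the alternative settings, although without scaling 2 of the 7 genes lay above 0 in females. The heart markers, high on CF, and the intestinal markers, high on MF, stand on the arrays of the female pair, and their part in these differences was not tested.

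**Figure D4:**
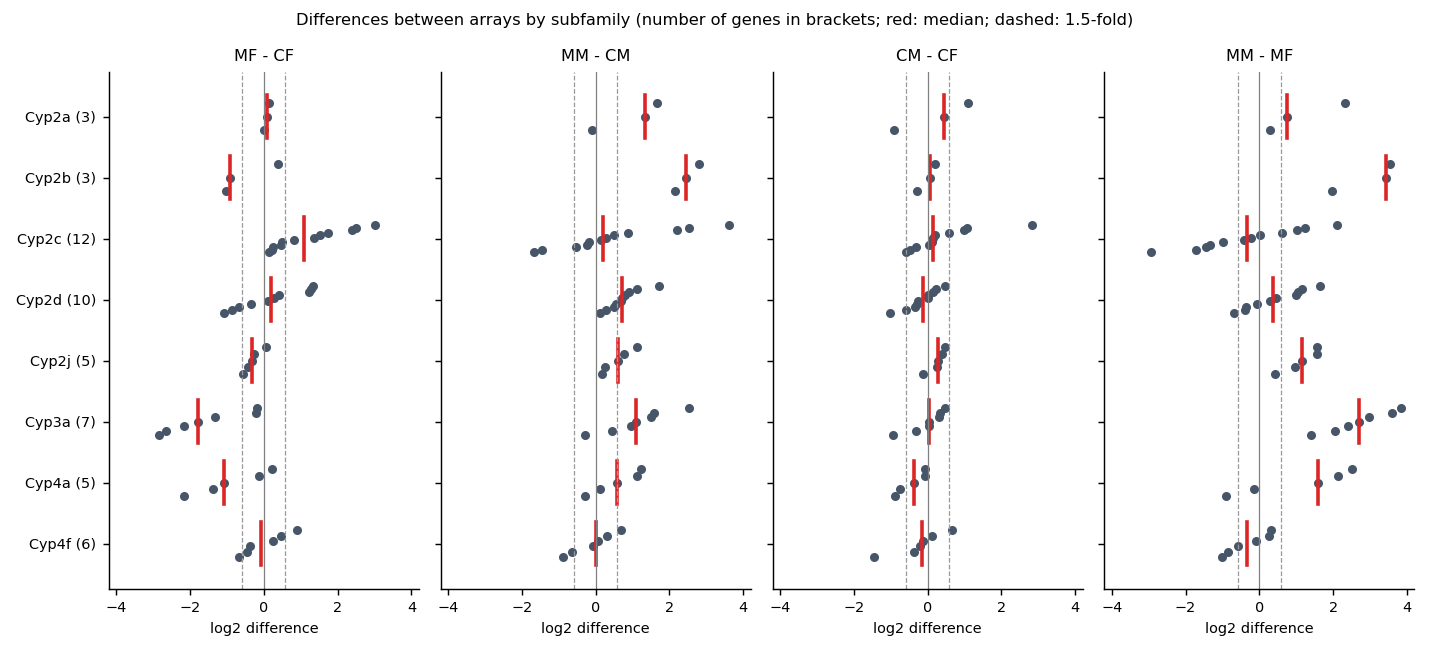
Log2 differences (horizontal axes) in the 4 comparisons for the subfamilies with 3 or more members well above background on all 4 arrays (vertical axis, number of genes in brackets), 1 point per gene, with the median in red and dashed lines at 1.5-fold. Cyp3a lies left of 0 in MF - CF (median -1.78) and right of it in MM - CM (median 1.08), Cyp2c lies right of 0 in MF - CF (median 1.10), and Cyp4f lies on both sides of 0, from -0.68 to 0.89 in MF - CF and from -0.88 to 0.68 in MM - CM.

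Cyp4a, the Ppara-induced fatty acid hydroxylases, had a negative difference in females and a positive one in males in 3 of its 5 measured genes. Cyp4a14 had signals of 5.65 on MF and 7.76 on MM, against 7.03 on CF and 6.65 on CM, which is 2.61-fold lower in MF and 2.16-fold higher in MM. Cyp4a31 had 4.62, 7.14, 6.78 and 5.90, which is 4.46-fold lower and 2.36-fold higher, and its other probes gave -2.15 and -2.28 in females and 1.39 and 0.93 in males. Cyp4a10, whose probe is close to that of Cyp4a31, had 5.51, 7.09, 6.59 and 6.52, which is 2.11-fold lower in MF, while MM was 1.49-fold higher and just under the threshold, which it passed under 5 of the other settings. In all 3 genes MF was the lowest array and MM the highest. Cyp4a12a, the form of male kidney and liver, differed by -0.13 and -0.29, and Cyp4a12b by 0.23 and 0.12, so that neither reached 1.5-fold. The median over the 5 genes was -1.08 in MF vs CF and 0.57 in MM vs CM.

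Other targets of Ppara were divided. Of the 8 measured, 3 were higher and 3 lower in MF than in CF, with a median of -0.12, and 4 were higher and 1 lower in MM than in CM, with a median of 0.50. Cpt1a, which admits fatty acids to the mitochondrion, had a difference of -1.76 in females and 0.39 in males, whereas Acaa1b, a peroxisomal thiolase, had 1.69 and 1.24. Ppara itself had 3.51 on MF and 3.61 on MM, against 3.40 on CF and 3.52 on CM, a difference of 0.11 in females and 0.09 in males.

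Cyp2b, the phenobarbital-inducible subfamily under Nr1i3, gave the highest median in males among subfamilies with 3 or more measured genes. Cyp2b10 had signals of 0.01 on MF and 3.43 on MM, against 0.93 on CF and 0.64 on CM, which is 1.90-fold lower in MF and 6.92-fold higher in MM. Cyp2b9 had -1.68, 1.86, -0.66 and -0.59, which is 2.03-fold lower and 5.48-fold higher. Cyp2b13 had -2.99, -1.03, -3.37 and -3.17, which is 1.30-fold higher in MF and 4.44-fold higher in MM. The MM array stood above the other 3 for all of them, and the median was -0.92 in MF vs CF and 2.45 in MM vs CM. Cyp2b19, known from the epidermis, was well above background on CM alone (-1.93), which is at least 13.1-fold over MM, a difference of MM minus CM of -3.71 that became -1.93 after normexp correction with quantile normalization. Of the 7 skin markers 3 were well above background on CM, against 4 on MM, and Krt1 and Krt5 were not; their summed signal was 1.029 on CM and 0.7881 on MM.

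The receptors of these subfamilies differed from control by under 1 on the log2 scale. Nr1i3 had 0.67 on MF and 1.78 on MM, against 1.02 on CF and 1.33 on CM, a difference of -0.35 in females and 0.45 in males. Nr1i2 had 2.10, 2.38, 3.02 and 2.33, which is a difference of -0.92 and 0.05. Of the 16 receptors and factors of P450 control, 3 were higher and 5 lower in MF than in CF, and 5 were higher and none lower in MM than in CM. Of all genes compared, 19.9% were higher and 21.1% lower in MF vs CF, and 17.7% and 23.1% in MM vs CM. The medians of the 16 were -0.35 and 0.25. Those higher in MM were Ahr (0.81), Hnf4a (1.01), Stat5b (1.39), Foxa2 (0.93) and Nfe2l2 (0.65), and the highest in MF was Cebpa (2.02), all as log2 differences from the control of the gender. Among 7 other targets of Nr1i2 and Nr1i3, the sulfotransferase Sult2a1 had 1.22 on MF and 5.74 on MM, against 2.81 on CF and 2.29 on CM, with MF lowest and MM highest as for Cyp2b9. The list as a whole had 1 higher and 3 lower of 6 in females (median -0.46) and 2 higher and 2 lower of 7 in males (median 0.52).

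Cyp1, the subfamilies induced through Ahr, were lower in M animals but for Cyp1a2 in males. Cyp1a1, which oxidises polycyclic hydrocarbons, had signals of -3.83 on MM, -2.77 on CF and -0.53 on CM and was not well above background on MF. It was at least 9.62-fold lower in MF than in CF and 9.91-fold lower in MM than in CM, differences of -3.27 and -3.31 that became -0.91 and -1.59 after normexp correction with quantile normalization. Cyp1a2, an oxidase of caffeine and arylamines, had -3.41 on MF and 1.35 on MM, against -1.82 on CF and 0.45 on CM, which is 3.01-fold lower in MF and 1.87-fold higher in MM, where the difference of 0.90 became 0.42 under that setting. Both were higher in CM than in CF, by 4.73-fold and 4.81-fold, differences of 2.24 and 2.27 that became 1.23 and 2.13 under that setting. Cyp1b1, expressed mostly outside hepatocytes, had -4.74 on MF, -3.35 on CF and -3.59 on CM and was not well above background on MM, which is 2.63-fold lower in MF and at least 3.57-fold lower in MM. Under normexp correction with quantile normalization its differences were -0.44 and -0.72, so that it was under 1.5-fold in females and Cyp1a1 alone was lower in both genders. Other Ahr targets gave another pattern in females, where 3 of 5 were higher and 1 lower. In males none of the 5 was higher and 2 were lower, the direction of Cyp1a1 and Cyp1b1. The aldehyde dehydrogenase Aldh3a1 had 5.68 on MF and 0.38 on MM, against 2.34 on CF and 3.55 on CM.

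Cyp2d genes, a cluster of 10 within chr15:82204377-82620634, were mostly higher in MM. In MM vs CM, 6 were higher and none lower, with a median of 0.70. Of these, Cyp2d34 rests on the probe. Its brightest probe gave 1.71 in males and 0.40 in females, and its other probe -0.54 and -1.16. In MF vs CF, 3 were higher and 3 lower, with a median of 0.18 that turned to -0.13 under 1 of the alternative settings. Cyp2d26 had signals of 8.86 on MF and 8.16 on MM, against 7.54 on CF and 7.27 on CM, which is 2.49-fold higher in MF and 1.87-fold higher in MM. Cyp2d11 had 7.50, 7.14, 6.28 and 6.42, and Cyp2d12 had 7.36, 6.98, 6.08 and 6.30. For these 3 genes each M array lay above the C array of its gender, by 1.61-fold (Cyp2d12 in males) to 2.49-fold (Cyp2d26 in females). After quantile normalization the differences in females were 0.44 (Cyp2d26), 0.40 (Cyp2d11) and 0.48 (Cyp2d12), all under 1.5-fold, and after normexp correction with it Cyp2d26 differed by 0.56 in females and 0.54 in males and Cyp2d12 by 0.35 in males. Cyp2d9, a testosterone hydroxylase of male liver, was 1.59-fold lower in MF and 1.41-fold higher in MM, and was level between CM and CF at 5.91 each. Cyp2d10 differed by -0.36 and 0.29, and Cyp2d22 by 0.27 and 0.79, which became -1.25 and 1.04, and 0.83 and 0.24, under that last setting. Cyp2d40 had -1.50, 0.13, -0.42 and -0.99, which is 2.13-fold lower in MF and 2.18-fold higher in MM.

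The cluster at chr7:26587495-27943565 holds Cyp2a, Cyp2b, Cyp2f, Cyp2g, Cyp2s and Cyp2t, and 8 of its 11 members compared were higher in MM than in CM. Cyp2a12 had signals of 4.44 on MF and 5.19 on MM, against 4.43 on CF and 3.53 on CM, which is 3.15-fold higher in MM and 1.01-fold higher in MF. Cyp2a4, a steroid hydroxylase, lay between 2.38 and 2.84 on the 4 arrays and differed by 0.08 and -0.09. Cyp2f2, best known from the airway and present in liver, had 3.37, 4.66, 2.22 and 3.89, which is 2.21-fold higher in MF and 1.71-fold higher in MM, and it was 3.18-fold higher in CM than in CF. Cyp2g1, known from the olfactory mucosa, had -3.06, -0.97, -4.22 and -2.54, which is 2.23-fold and 2.96-fold higher, the difference of 1.57 in males becoming 0.59 after normexp correction with quantile normalization. For these last 2 genes each M array lay above the C array of its gender, and each male array above the female array of its kind. Cyp2s1 went the other way in males, 1.79-fold lower in MM.

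Of the other Cyp2 genes compared in females, Cyp2r1 alone differed by over 1.5-fold. Cyp2e1, the ethanol-metabolising enzyme that is induced at birth, had 7.27 on MF and 7.66 on MM, against 7.83 on CF and 7.64 on CM. By this brightest probe the differences were -0.56 and 0.02, and neither reached 1.5-fold. After quantile normalization the difference in females was -1.29, and after normexp correction with it the differences were -1.48 and 1.11. A dimmer probe of Cyp2e1 gave -0.40 and 0.76 in the main setting, the latter 1.69-fold higher in MM. None of the 5 Cyp2j genes compared in females, epoxygenases of arachidonic acid, reached 1.5-fold, whereas 3 of 7 were higher in MM than in CM and 1 was lower. Cyp2j5 lay between -3.07 and -2.57, and Cyp2j6 was 1.53-fold higher in MM by its brightest probe, a difference of 0.61 that became -0.64 as the mean over its probes. Cyp2r1, a vitamin D hydroxylase, was 1.95-fold lower in MF and 1.13-fold higher in MM, and its difference of -0.96 in MF became -0.03 after normexp correction with quantile normalization. Cyp2u1, a fatty acid hydroxylase, had 9.06 on MF and 6.14 on MM, against 8.61 on CF and 6.60 on CM by its brightest probe, so that both female arrays lay above both male arrays, by 4.01-fold in C and 7.57-fold in M animals. Its other probe had -3.81, -1.99, -3.59 and -2.75, with the male arrays above, so the direction of Cyp2u1 between genders rests on the probe. Cyp2w1 was well above background on CM alone (-2.76).

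Cyp4f, the hydroxylases of leukotrienes and long fatty acids, went both ways. Of 9 genes compared in MF vs CF 1 was higher and 1 lower, and of 8 in MM vs CM 1 was higher and 2 lower, with medians of -0.07 and 0.01 over the 6 measured on all arrays. Cyp4f39 had signals of -1.65 on MF and -1.74 on MM, against -0.97 on CF and -2.42 on CM, which is 1.61-fold lower in MF and 1.61-fold higher in MM. Cyp4f13 was 1.84-fold lower in MM and 1.19-fold higher in MF, while Cyp4f15 differed by -0.45 and -0.06, and Cyp4f14 by -0.45 and at least 0.45. Cyp4f18, the leukotriene hydroxylase of neutrophils, had 1.86 on MF and 0.99 on MM, against 0.97 on CF and 1.65 on CM, which is 1.85-fold higher in MF and 1.57-fold lower in MM, and under 1.5-fold in both (0.53 and -0.25) after normexp correction with quantile normalization. Beside it, 9 of 10 neutrophil and macrophage markers were higher in MF than in CF and none lower (median 0.96), and in MM vs CM 1 was higher and 2 lower (median 0.06). Cyp4b1, a fatty acid hydroxylase of the lung, differed by -0.43 and 0.77, and Cyp4v3 had 1.01, 0.49, -0.63 and 0.57, which is 3.11-fold higher in MF and 1.06-fold lower in MM. Cyp4x1, known from the brain, was well above background on MM alone, at 0.81, which is at least 45.1-fold over CM and at least 115-fold over MF. The difference in males of 5.5 became 3.99 after normexp correction with quantile normalization. The single probe of Cyp4x1 is printed above.

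Between genders, 22 of 68 members differed by over 1.5-fold in C animals and 50 of 70 in M animals. In CM vs CF, 14 of 68 members were higher (20.6%, against 26.6% of all genes) and 8 lower (11.8%, against 19.7%), with a median of 0.04 beside 0.02 over all genes. In MM vs MF, 37 of 70 were higher (52.9%, against 28.9%) and 13 lower (18.6%, against 20.5%), with a median of 0.92 beside 0.08. Members higher were 63.6% of those counted in CM vs CF here, 33.3% after centring on the median, 19 of 38 after normexp correction and 52.2% without scaling. These comparisons use the same 4 arrays as those with control and are no separate evidence. The largest differences of MM over MF, among measured values, were those of Cyp1a2 (27.0-fold), Cyp3a57 (14.4-fold), Cyp3a59 (12.1-fold) and Cyp2b9 (11.7-fold). That of Cyp1a2, 4.75 on the log2 scale, became 3.29 after normexp correction with quantile normalization.

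Several of these genes are known to be higher in adult female liver than in male. Of 10 genes of that kind (Cyp2a4, 3 Cyp2b genes, 3 Cyp3a genes, Cyp4a10, Cyp4a14 and Cyp17a1), none was higher and 1 was lower by over 1.5-fold in CM than in CF, with a median difference of -0.01. In MM vs MF, 8 were higher and none lower, with a median of 2.08. Against control, none was higher and 6 were lower in MF (median -0.97), and 7 were higher and 1 lower in MM (median 1.54). Of 5 genes known to be higher in adult male liver, 1 was lower in MF and none was over 1.5-fold different in MM (medians of -0.13 and 0.12), while 2 were lower in CM than in CF, and 2 were higher and 2 lower in MM than in MF (medians of -0.21 and -0.16). One of them is Cyp2u1, whose direction between genders rests on the probe. Cyp2c40, Cyp2c69 and Cyp3a41a, also listed as higher in adult female liver, had no value here, so no Cyp2c gene is among the 10.

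Redox partners and genes of haem supply went both ways against control. The P450 reductase Por had 6.28 on MF and 5.69 on MM, against 6.73 on CF and 6.03 on CM, a difference of -0.45 and -0.34. Alas1, the first enzyme of hepatic haem synthesis, had 3.76, 5.05, 4.93 and 5.22, a difference of -1.17 and -0.17, so that MF was the lowest array. Pgrmc1, a haem-binding partner of P450 enzymes, was higher in MM by 1.40. Of the 14 genes of this list measured, 4 were higher and 2 lower in MF, and 3 were higher and 3 lower in MM, with medians of -0.05 and -0.15. Between genders, 2 were higher and 9 lower in MM than in MF (median -0.64), and none was higher and 3 lower in CM than in CF (median -0.23).

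A fit over all 4 arrays asked which members differed between M and C animals with gender taken into account. In limma, with 1 residual degree of freedom, none of the 61 members tested passed an adjusted p of 0.05, as did 0.0% of 19303 genes, and the smallest adjusted p among members was 0.964. At an unadjusted p under 0.05 there were 8 members (13.1%), against 4.42% of all genes. The highest were Cyp2c50 (8.02-fold, adjusted p = 0.964), Cyp2c39 (6.07-fold, adjusted p = 0.964) and Cyp2c37 (4.10-fold, adjusted p = 0.995), with standard errors of 0.47, 0.44 and 0.45 on the log2 scale. Without scaling, Cyp2c50 and Cyp2c39 passed the adjusted threshold. The fit averages both genders, so a gene such as Cyp3a41b, with -1.32 in females and 1.59 in males, has a mean of 0.14 with a standard error of 0.67. Whether the difference between M and C depends on gender could not be tested with 4 arrays, since that dependence is the residual of the fit. The standard errors rest on this residual and on its spread over all genes. They hold no spread between replicates of a group.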

How the data were processed

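Per the file headers, the authors scanned 1-colour (Cy3) Agilent arrays with Feature Extraction 10.7.3.1 (annotation mm9). The deposited values are spot intensities on a linear scale, background-subtracted and detrended by that software and not normalized between arrays. Here the log2 of the processed signal was used, less that of the 75th percentile over 59305 spots that are not controls. The 1754 spots that carried a non-uniformity or population outlier flag on at least 1 array were dropped from all 4. Spots of a probe were averaged, a probe was well above background where at least 50% of its spots were, and a gene was given by its brightest probe. Depth does not apply to arrays: 1 array per group limits the precision. limma 3.58.1 (R 4.3.3) was fitted with M or C and gender as terms and Benjamini-Hochberg adjustment over 19303 genes, and was tested on simulated data.

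Members, gene lists and tests were chosen with earlier results of these data known. Members named are 40 fixed names (3 of them, Cyp2a5, Cyp3a25 and Cyp3a41a, without a value), those over 1.5-fold the same way in both genders, the 5 highest and 5 lowest differences of each gender, and the 5 highest mean signals. Members with opposite directions in the genders, Cyp2c54 and Cyp2d34 for their probes, and the genes given from the lists, were picked with their values in view. Names were matched to RefSeq for 77 members (71 by symbol, 5 by accession, 1 by synonym). Alternatives tried were the centring, quantile normalization, normexp correction (offset 50), no scaling, the filter on dim probes, the mean over probes, a 2-fold threshold, flagged spots kept, the limma model and threshold, and, added after seeing the data, removal of position and GC trends.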

Additional observations from a re-analysis of the deposited data

Results flagged for a closer look

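Members whose difference from control went over 1.5-fold one way in females and the other way in males are given by the log2 difference of males (MM minus CM) minus that of females (MF minus CF). With 1 array per group this difference was not tested. It was 2.49 for Cyp1a2, 3.71 for Cyp2b10, 3.48 for Cyp2b9, 2.21 for Cyp2d40, 2.91 for Cyp3a41b, 3.80 for Cyp3a57, 3.25 for Cyp3a59, 2.50 for Cyp4a14, 3.40 for Cyp4a31 and 1.37 for Cyp4f39, all lower in MF and higher in MM. It was -3.95 for Cyp2c66 and -1.54 for Cyp4f18, which were higher in MF and lower in MM. Among data left out of the comparisons, the probe of Cyp3a25, flagged as an outlier on the CF array, was higher in MM than in CM by 0.97 on the log2 scale.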

How the results depend on the processing

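The direction of the subfamily medians of Cyp2b, Cyp3a and Cyp4a in both genders was the same under all scaling, probe, flag, position and GC settings. Of 119 differences over 1.5-fold of named members, 116 kept their sign under the 8 settings tried. The others were Cyp2c38 in MM vs CM (-1.67, and 0.43 as the mean over probes), Cyp2j6 in MM vs CM (0.61, and -0.64 as the mean over probes) and Cyp2d26 in MM vs MF (-0.70, 0.39 after quantile normalization and 0.89 after normexp correction and quantile normalization). For the mean over probes the cause is the second probe of the gene; for Cyp2d26 the cause was not tested. Of 100 differences of named members from control, 62 were over 1.5-fold; normexp correction and quantile normalization took 13 of them under it and 11 others over it, quantile normalization alone 6 and 5, and no scaling 6 and 16. A 2-fold threshold left 25 members in MM vs CM in place of 42, and 6 the same way in both genders in place of 10. In CM vs CF, 36 members passed 1.5-fold when arrays were centred on the median and 38 after normexp correction and quantile normalization, in place of 22. Deposited values without scaling gave 20 members the same way in both genders, 18 of them higher, and let limma call 2 members, in place of 0. At an unadjusted p under 0.01 with over 1.5-fold, 3 members passed. Centring on the median moved the median of all genes by -0.42 in CM vs CF, -0.28 in MM vs MF, 0.24 in MM vs CM and 0.10 in MF vs CF, and leaving out the scaling moved it by -0.11, 0.05, 0.56 and 0.40. Normexp correction moved it by -0.19 in CM vs CF, and removal of the GC trend by 0.11 in MF vs CF. No paired analysis was possible because each group had 1 array. No array could be left out for the same reason. Among the members described, signal over background limits to lower bounds Cyp1a1 in MF vs CF, and Cyp1b1, Cyp2b19, Cyp2w1, Cyp4x1 and Cyp4f14 in MM vs CM.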
